A study of Mus musculus with 2 samples.

Results

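The genes described here make, break down, bind and read retinoic acid in the mouse embryonic neural tube. They were chosen by name, as 10 genes among 43346 annotated genes measured. Aldh1a1, Aldh1a2 and Aldh1a3 encode the enzymes of synthesis, Cyp26a1 and Cyp26b1 the enzymes of breakdown, Rara, Rarb and Rarg the nuclear receptors, and Crabp1 and Crabp2 the cellular binding proteins. All 10 were found in the gene and transcript tables of both libraries. The tissue was neural tube of B6NCrl embryos at 15.5 days, with males and females pooled and no treatment or mutation labelled. Replicate 1 came from 78 embryos and replicate 2 from 62, so each library is an average over many animals. The libraries form 1 group, and the design held no comparison between conditions. The values below therefore describe levels, ratios between genes within a library, and how far the pools differed.

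Retinoic acid is made from vitamin A. Retinol is oxidised to retinal, and an Aldh1a enzyme oxidises retinal to retinoic acid in the step that cannot be reversed. Cyp26 enzymes oxidise retinoic acid further and so bound the regions that can respond to it. In the nucleus, a retinoic acid receptor paired with a retinoid X receptor binds response elements in DNA, holds corepressors without ligand and recruits coactivators with it. In the developing spinal cord the signal is known for its parts in neuronal differentiation, in hindbrain and spinal Hox expression and in the specification of limb-level motor neurons, which express Aldh1a2.

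Rarb and Cyp26a1 are known to carry response elements close to their starts, and these sequences are shown because they tie the receptors to genes of the same pathway. A search was made in windows reaching from 250 bases before to 50 bases after each RefSeq start (build GRCm38.p6). It looked on both strands for a pair of elements, each reading AGGTCA, or the same with G as the first base or T as the third base, in the same direction with 5 bases between them. Such a repeat was present in 32 of 32851 windows, or 0.0974%. Of 13 windows belonging to 8 members, 2 held it, and these were the windows of Rarb and Cyp26a1. The same pair with 1 or 2 bases between was present in 0.222% and 0.268% of all windows, and in 0 of the 13. The sites are printed in the direction of the gene, with the elements in capitals.
Rarb, chr14:16575507-16575535, minus strand: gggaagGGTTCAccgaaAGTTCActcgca
Cyp26a1, chr19:37697770-37697798, plus strand: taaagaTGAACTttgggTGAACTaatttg
The Rarb repeat reads along the gene, 53 to 37 bases before the RefSeq start. The GENCODE transcript of Rarb in release M21 begins further upstream, at position 16575543, and so includes the repeat. The Cyp26a1 repeat reads against the gene, as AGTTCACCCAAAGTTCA on the other strand, 32 to 16 bases before the start. The genes that carry these near-identical elements stood far apart in level. Rarb had 15.99 and 16.66 TPM (transcript abundance, a level corrected for transcript length and library size) in replicates 1 and 2, and Cyp26a1 had 0.54 and 0.99 TPM. A sequence match describes the window only and does not show binding. None of the 4 Rara windows held the annotated start of Rara-202 or Rara-203, so those starts were not searched.

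Replicate 1 held 35430338 expected counts in all, and replicate 2 held 42321669. In both libraries 1 TPM was reached by all 6 pan-neuronal genes, all 6 dorsal horn genes and 9 of 10 motor neuron genes. Of all annotated genes, 35.8% reached it. Replicate 1 stood apart by transcripts of epithelium and thymus. The 8 genes of epithelium and thymic epithelium summed to 797 TPM in replicate 1 and 8.19 TPM in replicate 2, and 7 of them differed by the rule given further down. Foxn1, which defines thymic epithelium, had 9.69 TPM in replicate 1 and was listed at 0 in replicate 2. The 6 thymocyte genes summed to 225 and 9.40 TPM, with Cd3g at 93.0 TPM in replicate 1 and listed at 0 in replicate 2. Of 5 genes of pericytes and smooth muscle, 3 differed by the same rule, Acta2 (175 and 17.9 TPM), Tagln and Myh11, while the pericyte genes Rgs5 and Pdgfrb did not (15.3 and 12.2 TPM, and 16.6 and 10.4 TPM). The sums of some other tissues were higher in replicate 2. The 4 skeletal muscle genes summed to 125 and 229 TPM, with Ckm called apart, and the 6 cartilage genes to 78.6 and 121 TPM, with Matn1 called apart. The 5 dorsal root ganglion genes summed to 70.7 and 82.3 TPM, with 0 called apart. In bulk RNA, fewer cells of a type and less RNA per cell cannot be told apart.

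The binding proteins were the most abundant members, Aldh1a2 led the enzymes, and Cyp26a1 was the lowest. Of the 10 members, 9 reached 1 TPM in both libraries, against 35.8% of all annotated genes. All 10 members code for protein, while the annotated genes include noncoding ones. The same limit holds wherever 35.8% is set beside a list, and no share over protein-coding genes alone is given. Of all annotated genes, 17032 were listed at 0 in both libraries. The binding proteins summed to 434 ± 42.2 TPM, the synthesis enzymes to 54.7 ± 2.36, the receptors to 39.7 ± 3.44 and the breakdown enzymes to 8.66 ± 0.969 (mean ± SD, n = 2 libraries here and below). In descending order of mean TPM the members were Crabp1, Crabp2, Aldh1a2, Rarb, Rara, Rarg, Cyp26b1, Aldh1a1, Aldh1a3 and Cyp26a1. Between neighbours in that order, the ranges over the libraries overlapped for Rarb and Rara, for Rarg and Cyp26b1, and for Cyp26b1 and Aldh1a1, so those neighbours did not differ beyond their spread.

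**Figure D1:**
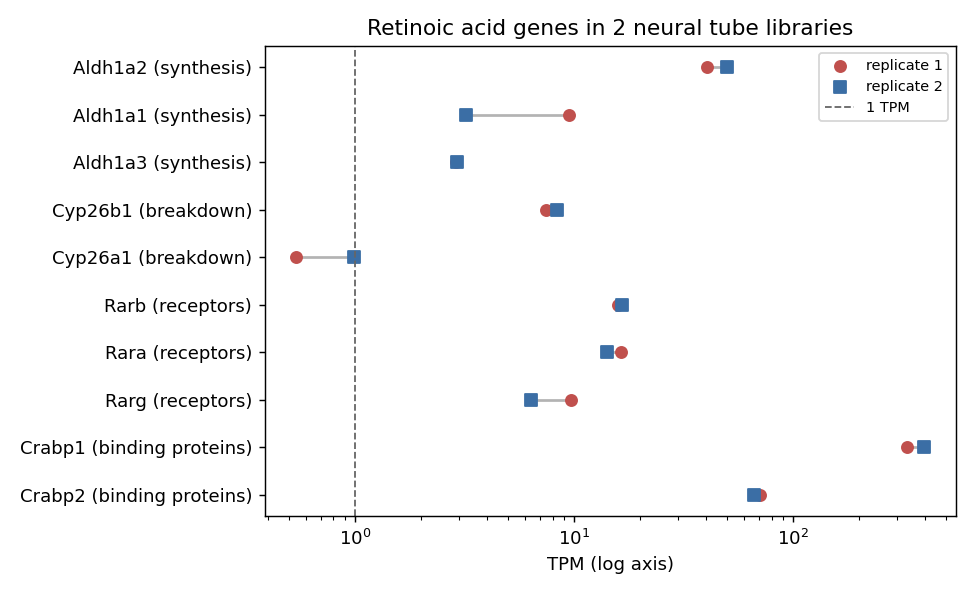
Level of each member in TPM on a log axis, with replicate 1 as a circle and replicate 2 as a square, members grouped by role, and a dashed line at 1 TPM. Crabp1 lies furthest right at 333 and 397 TPM, Cyp26a1 lies left of the line, and Aldh1a1 has a wide gap between its points.

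Aldh1a2 carried most of the synthesis transcripts. Aldh1a2 (ENSMUSG00000013584.5; chromosome 9, 71215789 to 71296243, plus strand), the main retinaldehyde dehydrogenase of the embryonic trunk, had 40.7 TPM in replicate 1 and 50.25 TPM in replicate 2. It made up 76.7% and 89.1% of the summed TPM of the Aldh1a enzymes. The range over the libraries lay above those of the other synthesis enzymes. Limb-level motor neurons and meninges are known sites of Aldh1a2. The 10 motor neuron genes had a median of 14.5 and 15.8 TPM. They ran from Prph at 148 and 166 TPM to Mnx1 at 1.05 and 0.77 TPM. Between these, Foxp1 had 52.2 and 41.5 TPM, the acetylcholine transporter Slc18a3 29.9 and 35.0 TPM, and Chat 3.34 and 3.66 TPM. Of the 11 genes of meninges and fibroblasts, 9 reached 1 TPM in both libraries, against 35.8% of all annotated genes. The 11 genes summed to 1186 and 1004 TPM. The collagen genes Col3a1 (432 and 288 TPM), Col1a1 (308 and 260 TPM) and Col1a2 (215 and 196 TPM) carried most of that sum. The list covers fibroblasts as well as meninges, so its sum does not measure meninges alone. Ptgds, which also differed between the libraries by the rule for genes apart, had 33.2 and 95.8 TPM, and Slc6a13 had 28.2 and 33.5 TPM. The lowest genes of the list were Foxc2, Foxc1, Foxd1 and Tbx18. Foxc2 had 2.8 and 2.79 TPM, and Foxc1 stayed under Foxc2 in both libraries. Foxd1 had 0.52 and 1.02 TPM, and Tbx18 was under 1 TPM in both libraries. The shares of Aldh1a2 that came from these cell types were not tested.

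Aldh1a1 was the only member called apart between the pools. Aldh1a1 (ENSMUSG00000053279.6; chromosome 19, 20492715 to 20643465, plus strand), a retinaldehyde dehydrogenase best known from dorsal retina and dopaminergic neurons, had 9.46 TPM in replicate 1 and 3.23 TPM in replicate 2. These values rested on 410 and 167 expected counts. The ratio was 2.93-fold, or 1.55 on the log2 scale, with an exact binomial 95% interval of 1.29 to 1.82 that covers counting error only. It was 1.31 as the log2 ratio of (TPM + 1). Genes were called apart where this log2 ratio was at least 1 in either direction, the average no lower than 5 TPM and the summed counts no fewer than 50. This held for 3.48% of the 11969 genes that met the minimums, with 3.34% higher in replicate 1 and 0.134% higher in replicate 2. Of the 8 members that met them, 1 was called apart, Aldh1a1. Each side was 1 library, so the difference has no replicate check. Binomial intervals of the same kind also excluded equal levels for other members. Among them, on the log2 scale, were Rarg at 0.42 to 0.80, Crabp1 at -0.30 to -0.20 and Cyp26a1 at -1.72 to -0.08. The intervals of Crabp2, Rarb and Aldh1a3 included equal levels. The epithelial, thymic and smooth muscle genes called apart above were also higher in replicate 1, and their part in Aldh1a1 was not tested. Among dopaminergic genes, Th was at 7.03 and 8.53 TPM, Slc18a2 at 7.69 and 7.77 TPM and Ddc at 4.53 and 3.89 TPM. Slc6a3 was at 0.12 and 0.08 TPM. The 5 endothelial genes summed to 170 and 143 TPM, and the 6 genes of roof and floor plate to 11.8 and 16.5 TPM. In the latter sum Msx1 had 6.42 and 12.6 TPM, while Shh had 2.24 and 1.27 TPM and Foxa2 1.83 and 1.03 TPM. The rest of that list stayed under 1 TPM in both libraries. Aldh1a7, a close copy of Aldh1a1 with which reads may be shared, had 1.86 and 2.25 TPM.

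Aldh1a3 was the lowest synthesis enzyme and had nearly the same level in both pools. Aldh1a3 (ENSMUSG00000015134.10; chromosome 7, 66390890 to 66427517, minus strand), known from ventral retina, nasal and other epithelia, had 2.91 and 2.93 TPM in replicates 1 and 2, from 148 and 162 expected counts. Aldh1a2 exceeded Aldh1a3 by 13.99-fold and 17.2-fold in TPM in replicates 1 and 2, a mean of 15.6 ± 2.24. Aldh1a2 exceeded Aldh1a1 by 4.30-fold and 15.6-fold. Because of Aldh1a1, the mean of that ratio, 9.93 ± 7.96, was known only loosely. The TPM of Aldh1a3 was divided between 2 transcripts. The full-length transcript Aldh1a3-201, with 1536 coding bases, held 46.2% and 35.4% of the gene's TPM in replicates 1 and 2. A shorter transcript, Aldh1a3-203, with 528 annotated coding bases, held 53.8% and 64.6%. In expected counts, which are not divided by length, the order was reversed. Aldh1a3-201 had 99.5 and 91.97 counts, and Aldh1a3-203 had 48.5 and 70.03. With so few counts the full-length form alone stood at 1.34 and 1.04 TPM.

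Cyp26b1 led the breakdown enzymes. Cyp26b1 (ENSMUSG00000063415.8; chromosome 6, 84571414 to 84593908, minus strand), a cytochrome that oxidises retinoic acid, had 7.43 TPM in replicate 1 and 8.35 TPM in replicate 2. Cyp26a1 (ENSMUSG00000024987.5; chromosome 19, 37697798 to 37701536, plus strand), the inducible enzyme of the same family, had 20 and 44 expected counts. Its 0.54 TPM in replicate 1 had an exact Poisson 95% interval of 0.330 to 0.834, and its 0.99 TPM in replicate 2 one of 0.719 to 1.33, both for counting error only. Cyp26a1 stayed under 1 TPM in both libraries and above the 0.0810 and 0.0675 TPM to which 3 counts correspond. The third enzyme of the family, Cyp26c1, which is not a member, had 0.03 TPM in replicate 1 and was listed at 0 in replicate 2. Cyp26b1 exceeded Cyp26a1 by 13.8-fold and 8.43-fold in replicates 1 and 2, a mean of 11.1 ± 3.77. From CPM, which is not divided by length, the ratios were 37.95 and 23.1. Cyp26b1 made up 93.2% and 89.4% of the Cyp26a1 and Cyp26b1 sum. The summed synthesis enzymes exceeded the summed breakdown enzymes by 6.66-fold and 6.04-fold in TPM, a mean of 6.35 ± 0.438. From CPM these ratios were 3.23 and 3.03. That ratio counts transcripts and says nothing of enzyme activity.

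Rara and Rarb stood near the same level, and Rarg stood lower. Rarb (ENSMUSG00000017491.8; chromosome 14, 16430839 to 16819156, minus strand), the receptor gene that retinoic acid itself induces, had the 15.99 and 16.66 TPM given above. Rara (ENSMUSG00000037992.12; chromosome 11, 98927818 to 98974942, plus strand), the most widely expressed receptor of the family, had 16.35 and 14.16 TPM in replicates 1 and 2. The log2 ratio of Rara to Rarb was 0.03 in replicate 1 and -0.23 in replicate 2, so which of them was higher depended on the library. Rarg (ENSMUSG00000001288.10; chromosome 15, 102234938 to 102257517, minus strand), the receptor of skin and cartilage, had 9.76 and 6.41 TPM. Rara exceeded Rarg by 1.68-fold and 2.21-fold in TPM, a mean of 1.94 ± 0.377. From the authors' posterior mean values Rarg had 13.8 and 9.84 TPM, and the log2 ratio of Rara to Rarg was 0.41, against 0.94 from TPM.

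Rarg was the member with the next largest excess in replicate 1 after Aldh1a1, at 0.54 as the log2 ratio of (TPM + 1), which did not reach 1. Epithelial genes were higher in replicate 1. Of the 5 cartilage genes that met the minimums, 1 was called apart, Matn1, higher in replicate 2 (2.49 and 8.87 TPM). Sox9 of the same list stood at 28.8 and 31.8 TPM. Their part in Rarg was not tested.

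The value for Rarb carries a limit from its neighbour. Top2b, a topoisomerase gene on the opposite strand, had 63.9 and 68.9 TPM. In the annotation release used for names here its main transcript is 10335 bases long and covers 1793 of the 3108 exonic bases of Rarb-201. In the release behind the deposited tables the same transcript was 5660 bases long. Whether the counting used strand is stated in no source used here, and reads of the longer Top2b form could have been counted for Rarb. The part of such reads was not tested.

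**Figure D2:**
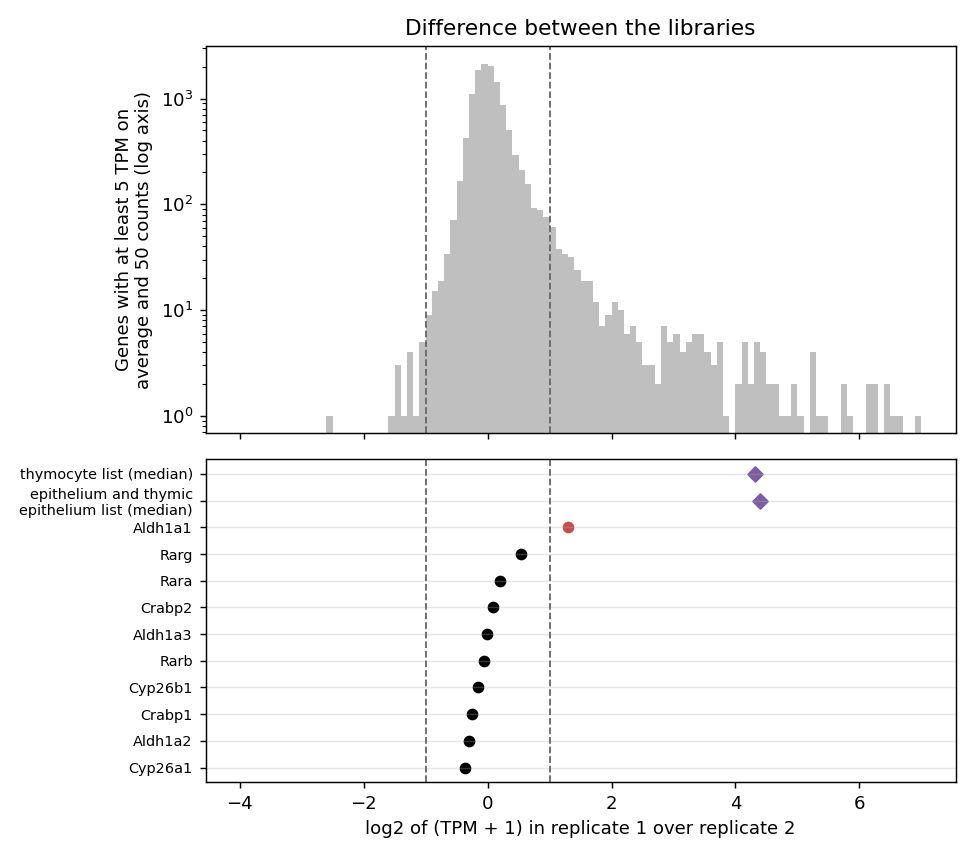
Upper panel, number of genes on a log axis by log2 ratio of (TPM + 1) in replicate 1 over replicate 2, for genes averaging 5 TPM or more with 50 or more summed counts. Lower panel, the same ratio for each member (circles) and the median of the epithelium and thymocyte lists (diamonds), with dashed lines at ratios of 1 in either direction. Aldh1a1 at 1.31 lies past the line, the other 9 members lie between -0.37 and 0.54, and the list medians lie at 4.39 and 4.31.

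Rara and Rarg had transcripts from more than 1 start. In Rara and Rarg, alternative starts are known to give receptors that differ in the first domain of the protein and share the DNA-binding and ligand-binding domains. The beginning of the coding sequence of each form is shown to make the difference visible, with the start codon in capitals, read from GENCODE release M21 transcripts.
Rara-203: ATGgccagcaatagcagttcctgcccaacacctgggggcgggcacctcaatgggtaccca
Rara-202: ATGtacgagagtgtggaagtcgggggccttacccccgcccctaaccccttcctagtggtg
Rarg-201: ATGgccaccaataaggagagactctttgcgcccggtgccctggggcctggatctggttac
Rarg-202: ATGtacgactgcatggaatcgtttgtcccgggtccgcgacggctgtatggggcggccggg
Rara-203 and Rara-202 share their last 1208 coding bases and have 178 and 169 coding bases of their own. Rarg-201 and Rarg-202 share their last 1191 coding bases and have 183 and 150 of their own.

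Rara was split between its starts in a like way in both pools. The 4 transcripts that begin at the upstream start codon, position 98950618 on chromosome 11, summed to 61.7% of Rara TPM in replicate 1 and 56.3% in replicate 2. Rara-202, which begins at position 98960965, held 38.3% and 42.5%. Within the upstream group the transcripts Rara-203 and Rara-204 were less stable. Rara-203 held 26.2% and 42.2% of Rara TPM in replicates 1 and 2, while Rara-204 held 35.5% and 14.1%. Both have a coding sequence of 1386 bases, and they begin at positions 98927818 and 98937698. The split between them moved, while the share of their start codon moved by 5.40 percentage points. Whether the use of these starts or the model's assignment of reads differed was not tested.

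Rarg-202 was the leading transcript of Rarg. It held 63.6% of Rarg TPM in replicate 1 and 62.4% in replicate 2, at 6.21 and 4.00 TPM. From the posterior means it held 44.5% and 40.6%. Rarg-201 held 20.8% and 26.7%, at 2.03 and 1.71 TPM. A fragment of 423 bases, Rarg-204, held 15.7% and 10.9% from 11 and 6 expected counts. Rarg-201 and Rarg-202 both had more TPM in replicate 1.

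The other members gave little to divide. Crabp1, Aldh1a1, Aldh1a2, Rarb and Cyp26a1 each had 1 annotated transcript in the deposited tables, so no isoform could be told apart. For Rarb this means that forms from other known promoters were not separated. Crabp2-201 held 99.5% and 99.2% of Crabp2 TPM in replicates 1 and 2. Cyp26b1-202 held 90.6% and 100%, and Cyp26b1-201, with a coding sequence of the same 1536 bases, held 9.39% in replicate 1 and was listed at 0 in replicate 2.

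**Figure D3:**
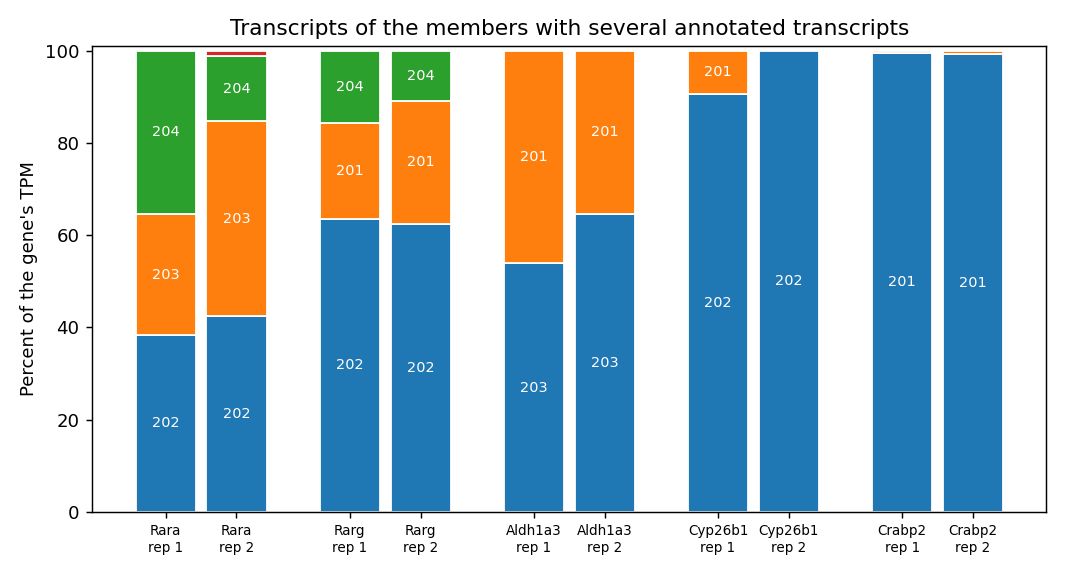
Percent of each gene's TPM in each annotated transcript, for the 5 members with several transcripts, with 1 bar per library and transcript numbers in the segments over 8%. Rara-202 and Rarg-202 hold similar shares in both libraries, whereas Rara-203 and Rara-204 trade places.

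Crabp1 was among the most abundant transcripts of the tissue. Crabp1 (ENSMUSG00000032291.8; chromosome 9, 54764748 to 54773110, plus strand), which holds retinoic acid in the cytoplasm and is known to mark subsets of spinal neurons and neural crest, had 333 TPM in replicate 1 and 397 TPM in replicate 2. Its mean of 365 ± 45.2 TPM ranked 367 of 43346 genes. Crabp2 (ENSMUSG00000004885.5; chromosome 3, 87948666 to 87953376, plus strand), which passes retinoic acid to the receptors, had 70.7 and 66.4 TPM. Crabp1 exceeded Crabp2 by 4.72-fold and 5.98-fold in TPM, a mean of 5.35 ± 0.893, and the ranges of the libraries did not overlap. Beside Crabp1, the 6 dorsal horn genes summed to 149 and 171 TPM, and the 4 Schwann cell genes to 34.3 and 29.9 TPM. Most of the dorsal horn sum was Prrxl1 at 102 and 113 TPM, and the next gene, Tlx3, had 16.7 and 19.0 TPM. The part of each cell type in Crabp1 was not tested. Fabp5, which can carry retinoic acid to the receptor Ppard in place of Crabp2, was more abundant than either binding protein, at 741 and 762 TPM, while Ppard itself stood at 1.28 and 0.96 TPM.

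The partners and coregulators of the receptors were present throughout. The retinoid X receptors, the obligate partners, summed to 65.6 ± 2.41 TPM, against 39.7 ± 3.44 TPM for Rara, Rarb and Rarg. Rxrb was the leading partner at 46.8 and 43.8 TPM, Rxrg had 16.3 and 17.1 TPM, and Rxra had 4.18 and 2.95 TPM. All 14 coregulators reached 1 TPM in both libraries, against 35.8% of all annotated genes. The corepressor Ncor1 had 139 and 142 TPM and its deacetylase partner Hdac3 had 123 and 121 TPM, while the coactivators Ncoa1 and Kat2b had 7.33 and 9.34 TPM, and 4.47 and 4.87 TPM. Of the 13 coregulators that met the minimums, 0 were apart between the pools, and a share of 3.48% over all genes would leave a list of that size with few or none.

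Genes that act on retinol and retinal were present in part. Of 17 retinol and retinal oxidoreductases, 9 reached 1 TPM in both libraries, against 35.8% of all annotated genes. Adh5, of the alcohol dehydrogenase family, led at 153 and 143 TPM, and Rdh14 followed at 39.6 and 37.9 TPM. Rdh10, the enzyme that makes retinal from retinol in the embryo, had 9.60 and 7.21 TPM, and Dhrs3, which returns retinal to retinol, had 33.8 and 25.4 TPM. Rdh1, Adh4 and Dhrs9 were listed at 0 in both libraries. Of 9 genes of uptake, carriage and storage, 5 reached 1 TPM in both libraries, against the same 35.8%. The uptake receptor Stra6 had 16.9 and 17.7 TPM, and Dgat1, an acyltransferase, had 62.0 and 60.9 TPM. Lrat, which stores retinol as esters, stood at 0.27 and 0.19 TPM and Rbp7 at 0.87 and 0.24 TPM.

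Of 19 genes with a known response element, 14 reached 1 TPM in both libraries, against 35.8% of all annotated genes. The TALE factors Meis1 and Meis2 led at 129 and 137 TPM, and 61.2 and 78.3 TPM. Hoxb8 had 52.0 and 59.0 TPM, while Hoxb1, which acts early in the hindbrain, had 0.32 and 0.54 TPM. Stra8, a gene of germ cells, was at 0.08 TPM in replicate 1 and listed at 0 in replicate 2. Hoxb5 was apart between the pools, with 32.4 TPM in replicate 1 and 86.7 TPM in replicate 2. Cdx1 was under the minimum of 5 TPM on average and had 7.92 TPM in replicate 1 and 0.02 TPM in replicate 2. Over all 62 wider genes, 42 passed 1 TPM in each library, against 35.8% of all annotated genes. Of the 34 that met the minimums, 0 were apart towards replicate 1 and 1, Hoxb5, towards replicate 2, against the 3.34% and 0.134% of all genes.

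**Figure D4:**
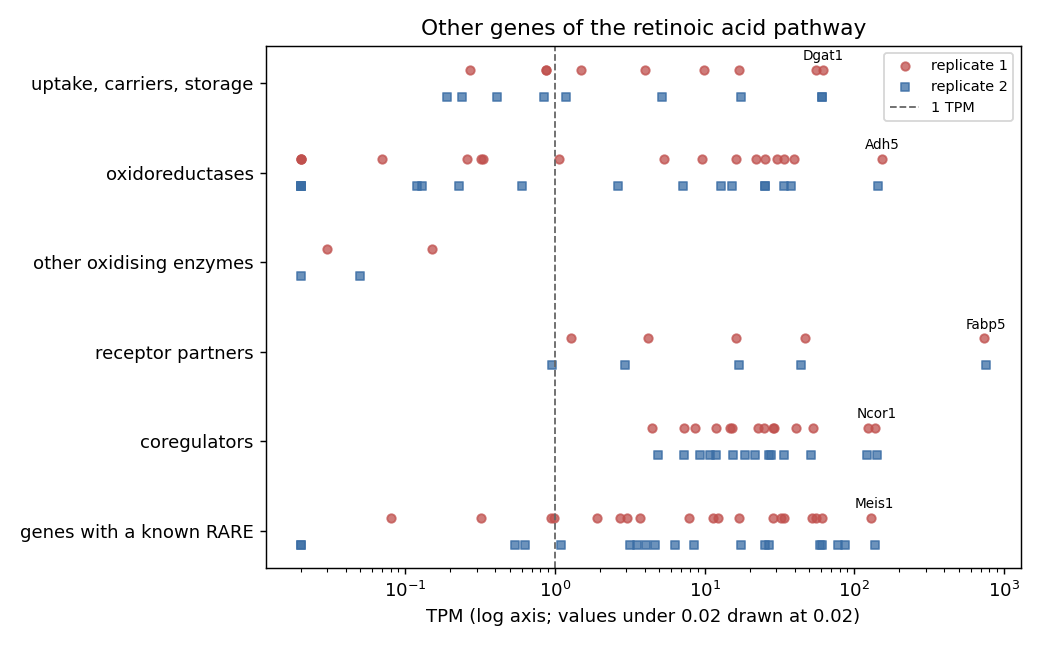
TPM on a log axis for the wider genes of the pathway in 6 lists, with replicate 1 as circles above and replicate 2 as squares below, and a dashed line at 1 TPM. Fabp5 is the highest gene, all coregulators lie right of the line, and both genes of the list of other oxidising enzymes lie left of it.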

How the data were processed

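Total RNA longer than 200 nucleotides was sequenced from 2 pools, with 10 ng entering each library, per the labels. Per the notes the authors deposited with each sample, gene and transcript tables were derived from transcriptome alignments on mm10 with GENCODE M4. No source used here names the aligner, the quantifier, their versions or whether strand was used. The deposited tables hold model-based expected counts, TPM scaled over all entries, spike-ins included (5.00% and 5.42% of TPM), and each transcript's share of its gene in percent. Entries that name no gene took 2.12% and 2.28% of counts and were left out of gene analyses. Names, coordinates and coding sequences came from GENCODE M21 on GRCm38, matched by identifier without version (42462 of 43346 genes). Of the members' 27 transcripts, 22 had the same length in M21. Promoter windows came from RefSeq. They were found for 8 members.

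With 1 group of 2 libraries no statistical test was run. Expected counts were rounded for TMM scaling in edgeR 4.0.16 and for DESeq2 1.42.0 size factors (R 4.3.3). Python 3.11.15 with numpy 2.4.6, pandas 2.3.3, scipy 1.17.1 and matplotlib 3.10.9 did the rest. The rule for genes apart was tested on simulated data. Each SD measures the spread between these pools. Intervals cover counting error only. The members and lists were chosen with earlier results of these data known. The rule named all members, their transcripts at 5% or more in both libraries, the 2 highest and 2 lowest genes of each wider list, and any apart between the libraries. Other genes are named for their roles, with values known. Some genes that the rule would name are not reported here.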

Additional observations from a re-analysis of the deposited data

How the results depend on the processing

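No paired analysis was possible because the libraries form 1 group. The number of members detected, 9 at 1 TPM, was 10 at 0.5 TPM and 7 at 5 TPM. It was 9 from posterior mean TPM, TMM-normalized CPM, or either library taken alone. The count of members apart between the libraries was 1 with a pseudocount of 0.1 TPM, TMM scaling, DESeq2 size factors, posterior means or no filter on low values. From CPM, which is not divided by length, the log2 ratio of Cyp26b1 to Cyp26a1 was 4.89, against 3.43 from TPM, and that of summed synthesis to summed breakdown enzymes was 1.64, against 2.66. The posterior means gave a log2 ratio of Rara to Rarg of 0.41, against 0.94. They assigned 26.6% and 31.3% of Rarg to Rarg-206, a transcript of 111 bases with 0 expected counts, and gave Rarg-202 a mean of 42.5%, against 63.0%, and Aldh1a3-203 50.4%, against 59.2%. The other 22 of 25 alternatives for counts and ratios moved by less than the SD over the libraries or, for counts, by less than 1.5 times. Leaving out a replicate gives the ratio of the other library and cannot move a mean of 2 by more than its SD, so it is not counted there. Depth limits Cyp26a1 most, at 20 and 44 counts.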
